A study of Mus musculus with 3 samples.

Results

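The 35 genes described here encode the machinery that takes a cell from G1 into S phase and copies its DNA. They were chosen by name from this textbook pathway, with earlier results of these data known. A probe belonged to the set when its RefSeq accession named 1 of them. All 35 genes had a probe, 41 probes in all, among 20886 genes named on the array. RNA came from primary cultures labelled as endothelial, grown from the spongy erectile tissue (corpus cavernosum) of C57BL/6 mice. There were 3 conditions, each lasting 48 h: high glucose (30 mmol) with added DKK2, high glucose (30 mmol) alone, and normal glucose (5 mmol). DKK2, or Dickkopf 2, is a secreted protein that acts on Wnt receptors. No source used here states how much was added. The labels give all cultures a medium with serum, heparin and vascular endothelial growth factor A. Each condition was read on 1 one-colour array carrying a pool of 3 RNA samples, so there was no replicate and no p-value, and the differences compare arrays. The labels do not say which mice or cultures the pooled samples came from.

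DNA replication is licensed in G1, when the origin recognition complex, CDC6 and CDT1 load the MCM2 to MCM7 helicase onto DNA. At the G1/S transition cyclin D with CDK4 and cyclin E with CDK2 release E2F transcription factors, which switch on many replication genes. CDC45, the GINS complex and MCM10 then start the helicase, polymerases copy the strands around the PCNA clamp, and ribonucleotide reductase, thymidylate synthase and thymidine kinase supply the deoxynucleotides. In blood vessels this programme is low in resting endothelium and is switched on by growth factors.

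Since E2F proteins bind many of these genes, the promoter windows of the members were searched for E2F-type words. RefSeq windows (build GRCm38.p6, 250 bases before to 50 after the annotated start) were at hand for 27 of the 35 genes. The words searched on either strand were TTCCCGC as the first, TTGGCGC as the next, then also TTCGCGC and lastly the variant TTGCCGC. Overlapping matches were counted separately. At least 1 word stood in 16 of the 27 genes (59.3%), against 14.4% of the 16551 array genes with a window. At least 2 words stood in 8 of the 27 (29.6%), against 1.99% of all. The median GC content of the windows was close, 57.7% for the members and 57% for all. A match is only a run of letters, not a shown binding site. The E-box CACGTG stood in 2 of the 27 genes, Tyms and Cdk4 (7.41%, against 9.37% of all). The windows below belong to the 3 genes that were at least 2-fold higher with DKK2 than in high glucose alone (Cdt1, Orc1 and Mcm10) and to the helicase subunit genes Mcm5 and Mcm6, which hold several words. Capitals mark the E2F-type words.
Cdt1: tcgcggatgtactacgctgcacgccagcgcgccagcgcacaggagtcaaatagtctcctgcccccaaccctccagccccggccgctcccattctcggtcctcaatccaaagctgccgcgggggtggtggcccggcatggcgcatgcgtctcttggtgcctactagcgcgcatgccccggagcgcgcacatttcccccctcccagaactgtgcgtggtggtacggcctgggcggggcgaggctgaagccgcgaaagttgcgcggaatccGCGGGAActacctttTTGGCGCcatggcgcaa
Orc1: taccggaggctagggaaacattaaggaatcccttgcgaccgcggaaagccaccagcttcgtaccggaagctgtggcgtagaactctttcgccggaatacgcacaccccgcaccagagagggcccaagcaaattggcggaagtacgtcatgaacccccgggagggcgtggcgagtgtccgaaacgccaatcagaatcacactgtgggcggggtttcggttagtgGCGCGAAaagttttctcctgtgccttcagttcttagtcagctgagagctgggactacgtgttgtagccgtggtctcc
Mcm10: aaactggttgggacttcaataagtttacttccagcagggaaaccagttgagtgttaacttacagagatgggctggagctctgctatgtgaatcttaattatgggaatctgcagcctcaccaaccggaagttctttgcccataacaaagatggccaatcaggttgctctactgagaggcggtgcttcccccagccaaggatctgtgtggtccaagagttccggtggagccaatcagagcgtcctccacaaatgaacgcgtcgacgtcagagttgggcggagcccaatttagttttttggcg
Mcm5: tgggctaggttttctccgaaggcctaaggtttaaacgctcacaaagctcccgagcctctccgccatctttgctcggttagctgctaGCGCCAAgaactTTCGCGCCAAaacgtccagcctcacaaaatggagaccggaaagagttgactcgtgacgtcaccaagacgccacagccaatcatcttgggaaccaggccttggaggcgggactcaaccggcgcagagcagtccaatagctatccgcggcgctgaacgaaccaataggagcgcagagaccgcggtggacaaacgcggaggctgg
Mcm6: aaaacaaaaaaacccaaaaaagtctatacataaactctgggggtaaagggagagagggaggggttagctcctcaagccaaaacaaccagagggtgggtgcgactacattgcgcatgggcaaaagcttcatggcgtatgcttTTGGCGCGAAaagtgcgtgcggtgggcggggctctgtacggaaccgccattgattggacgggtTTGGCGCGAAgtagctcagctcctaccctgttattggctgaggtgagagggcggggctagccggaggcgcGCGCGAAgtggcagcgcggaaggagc
They lie at chr8:122567765-122568064 (plus strand), chr4:108579204-108579503 (plus strand), chr2:5012742-5013041 (minus strand), chr8:75109259-75109558 (plus strand) and chr1:128359656-128359955 (minus strand) in that order. Cdt1 had 2 words, Orc1 had 1, Mcm5 had 3, Mcm6 had 5 and the Mcm10 window had 0. The Mcm10 window ended in TTGGCGC without its last base, so its 0 may depend on the window edge.

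**Figure D1:**
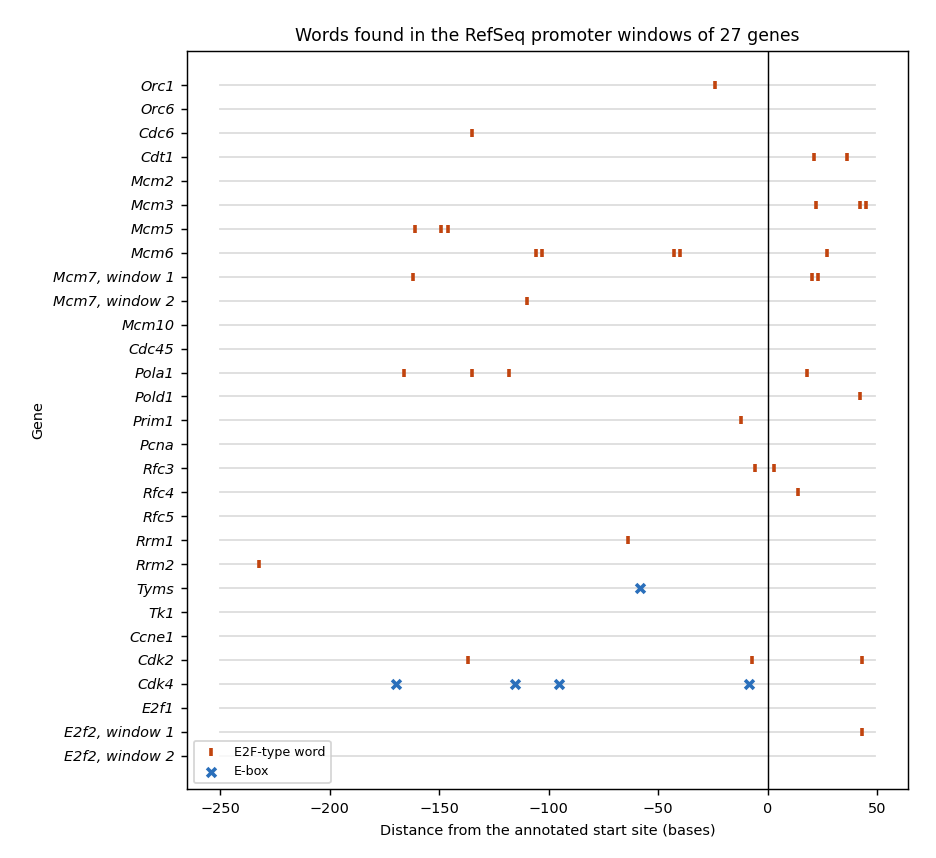
Position of each E2F-type word (bars) and E-box (crosses) in the promoter windows of 27 genes, by distance in bases from the annotated start site (vertical line). Mcm6, Pola1, Mcm3, Mcm5, Mcm7 and Cdk2 hold 3 or more E2F-type words in a window, while 11 genes hold none.

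Values are given as scaled signal, the scanner's background-corrected signal divided by the 75th percentile of that array, because the normal glucose array was dimmer (75th percentile 1201, against 2417 with DKK2 and 2380 in high glucose). Differences are in log2 units, where 1 is 2-fold. Genes with several probes were read on the brightest. The scanner's error model gave a member's difference a technical SD of 0.20 in the median, up to 0.33 for Ccne2, and this leaves out any variation between cultures. The lowest member value and the median over all genes were also 0.20, so 2 error SDs were nearly a fixed cut for most genes. Spots of a replicated probe had a median SD of 0.07 to 0.08 on each array. Probes of 1 gene can also differ: over all genes with a further probe the median gap between the differences of both probes was 0.20 with DKK2 over high glucose (4623 genes), 0.43 with high glucose over normal glucose (4319 genes) and 0.49 with DKK2 over normal glucose (4300 genes). Every one of the 35 genes was well above background on all 3 arrays, so none was lost to a filter on dim probes. Of 12 endothelial markers 10 were well above background on all 3 arrays, and Emcn and Erg were not. Only 4 of them had a signal of at least 100 on all 3 arrays. Markers of fibroblasts (10 of 10), smooth muscle (9 of 10), macrophages (11 of 12), adipocytes (8 of 8) and skeletal muscle (6 of 8) were read on all 3 arrays too. A signal of at least 100 on all arrays was reached by 10, 6, 7, 3 and 3 of these in that order. The make-up of the cultures was not determined here. Fewer cells in S phase and less RNA per cell cannot be told apart in pooled RNA. The 3 arrays lay at different places on a shared slide, so array position and condition cannot be told apart.

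**Figure D2:**
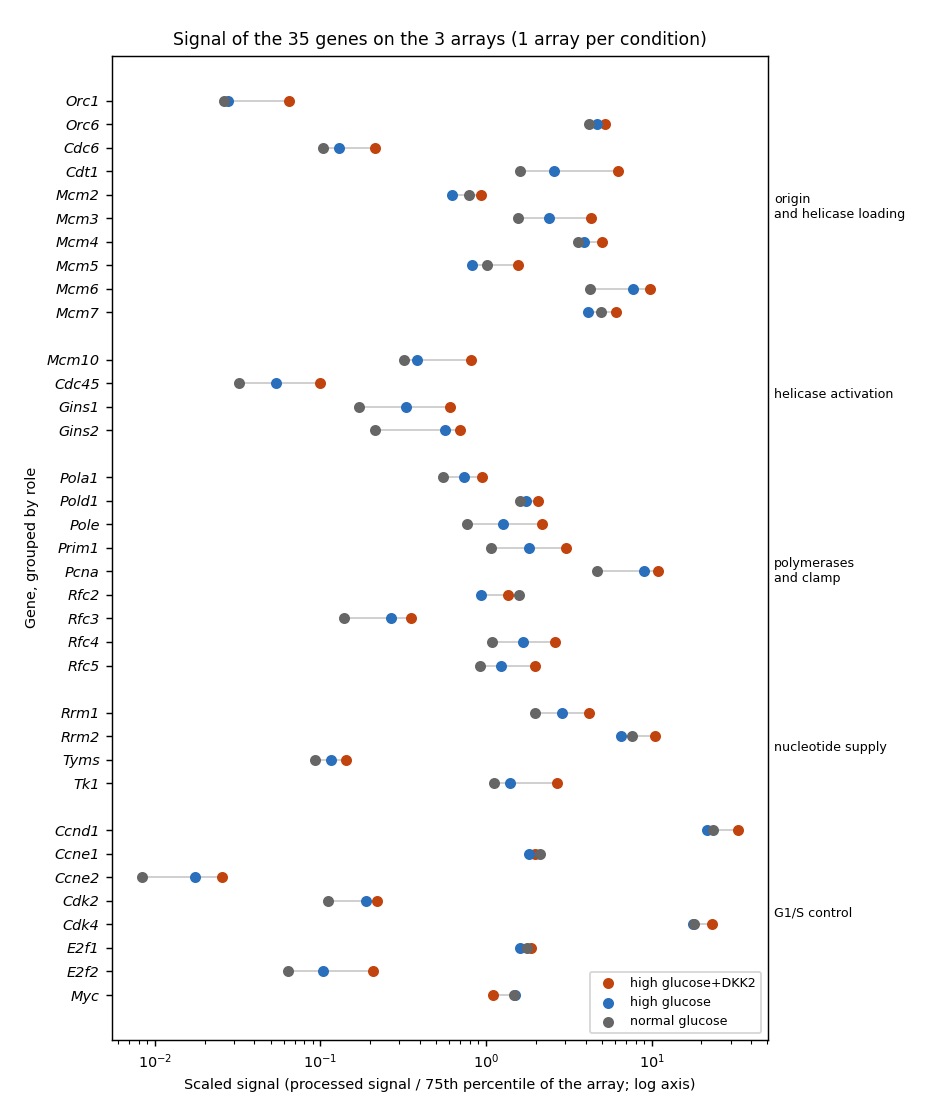
Scaled signal of each of the 35 genes (log axis) on the array of high glucose with DKK2, of high glucose and of normal glucose, 1 point per array, with genes grouped by role. The DKK2 point lies to the right of the high glucose point for 34 genes, and Myc is the exception. Levels of different genes come from different probes and are not to be compared.

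The first comparison asked what DKK2 changed in cells kept in high glucose. Nearly the whole set read higher with DKK2. Of the 35 genes 34 lay above 0, where 57.6% of all 17825 genes measured on both arrays did, and the median difference was 0.56, against 0.08 for all genes. The steps were mostly small. Only 3 genes (8.57%), Cdt1, Orc1 and Mcm10, were at least 2-fold higher and 0 were lower, which is not far from the 5.08% of all genes that were higher and the 4.85% that were lower. At 1.5-fold the count was 17 higher and 0 lower, against 13.1% and 11.3% of all genes. A difference of more than 2 scanner error SDs was seen upwards for 22 genes (19.8% of all genes) and downwards for 1 gene, Myc (16.3% of all genes).

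Cdt1 and Orc1, both licensing genes, had the 2 highest differences. Cdt1, which brings the helicase to the origin, had a scaled signal of 6.30 with DKK2, 2.56 in high glucose and 1.60 in normal glucose. The DKK2 array was the highest and normal glucose the lowest, and the difference of DKK2 over high glucose was 1.30 (error SD 0.20), rank 496 of 17825 genes. Orc1, the subunit of the origin recognition complex that binds CDC6, read 0.0643 with DKK2, 0.0278 in high glucose and 0.0260 in normal glucose, a DKK2 over high glucose difference of 1.21. The processed signal put high glucose and normal glucose close together for Orc1 (0.09), but its probe was dim, and with normexp, another background correction, high glucose over normal glucose was -1.16. With normexp DKK2 over high glucose was 0.84, short of 2-fold. Cdc6, the other loading factor, was at 0.73 on its brighter probe and at 0.89 on its dimmer one. Orc6, the smallest origin recognition subunit, was at 0.16, within 1 error SD of 0.

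The 6 subunits of the MCM helicase ring all lay above 0 with DKK2, between 0.36 and 0.94. Mcm5 read 1.57 with DKK2, 0.818 in high glucose and 1.02 in normal glucose, and its difference of DKK2 over high glucose was 0.94. Mcm3 followed at 0.84, Mcm2 at 0.59 and Mcm7 at 0.56, while Mcm4 and Mcm6 were at 0.37 and 0.36. The last 2 lay within 2 error SDs of 0. Among the genes that start the ring, Mcm10 read 0.808 with DKK2, 0.382 in high glucose and 0.320 in normal glucose, so only the DKK2 array stood out, by 1.08 over high glucose. Gins1, a GINS subunit, was at 0.88 and Cdc45 at 0.87, and Gins2 was at 0.31.

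The 9 polymerase, primase and clamp genes had a median of 0.54 and none was 2-fold apart. Pole, the catalytic subunit of the leading strand polymerase, was at 0.78 and Prim1, the primase that makes the RNA primer, at 0.75. The clamp loader genes Rfc2, Rfc3, Rfc4 and Rfc5 lay between 0.42 and 0.67. The clamp gene Pcna was at 0.28, Pola1 at 0.36 and Pold1 at 0.23, all within 2 error SDs of 0. Of the nucleotide supply genes Tk1, which salvages thymidine, read 2.70 with DKK2, 1.40 in high glucose and 1.11 in normal glucose. Its difference of DKK2 over high glucose was 0.95. The ribonucleotide reductase genes Rrm2 and Rrm1 were at 0.69 and 0.54, and Tyms was at 0.31.

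The 8 control genes that act before S phase varied most among themselves (median 0.30, from -0.44 to 0.99). E2f2, an activating E2F, read 0.207 with DKK2, 0.104 in high glucose and 0.0641 in normal glucose. It was at 0.99 over high glucose, just short of 2-fold, while Mcm10 at 1.08 lay just past it. E2f1, its relative, was at 0.22, with scaled signals of 1.87 with DKK2, 1.60 in high glucose and 1.76 in normal glucose that lay close together. Ccnd1, the cyclin D1 gene, read 33.1 with DKK2, 21.5 in high glucose and 23.3 in normal glucose and was at 0.62 over high glucose. Its partner Cdk4 was at 0.38, with its 3 probes between 0.38 and 0.53. The cyclin E genes were at 0.55 (Ccne2, a dim probe) and 0.12 (Ccne1, with a further probe at -0.06), and Cdk2 was at 0.22. Myc, a growth-promoting transcription factor, went the other way. It read 1.1 with DKK2, 1.49 in high glucose and 1.47 in normal glucose, a difference of DKK2 over high glucose of -0.44 (error SD 0.20).

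**Figure D3:**
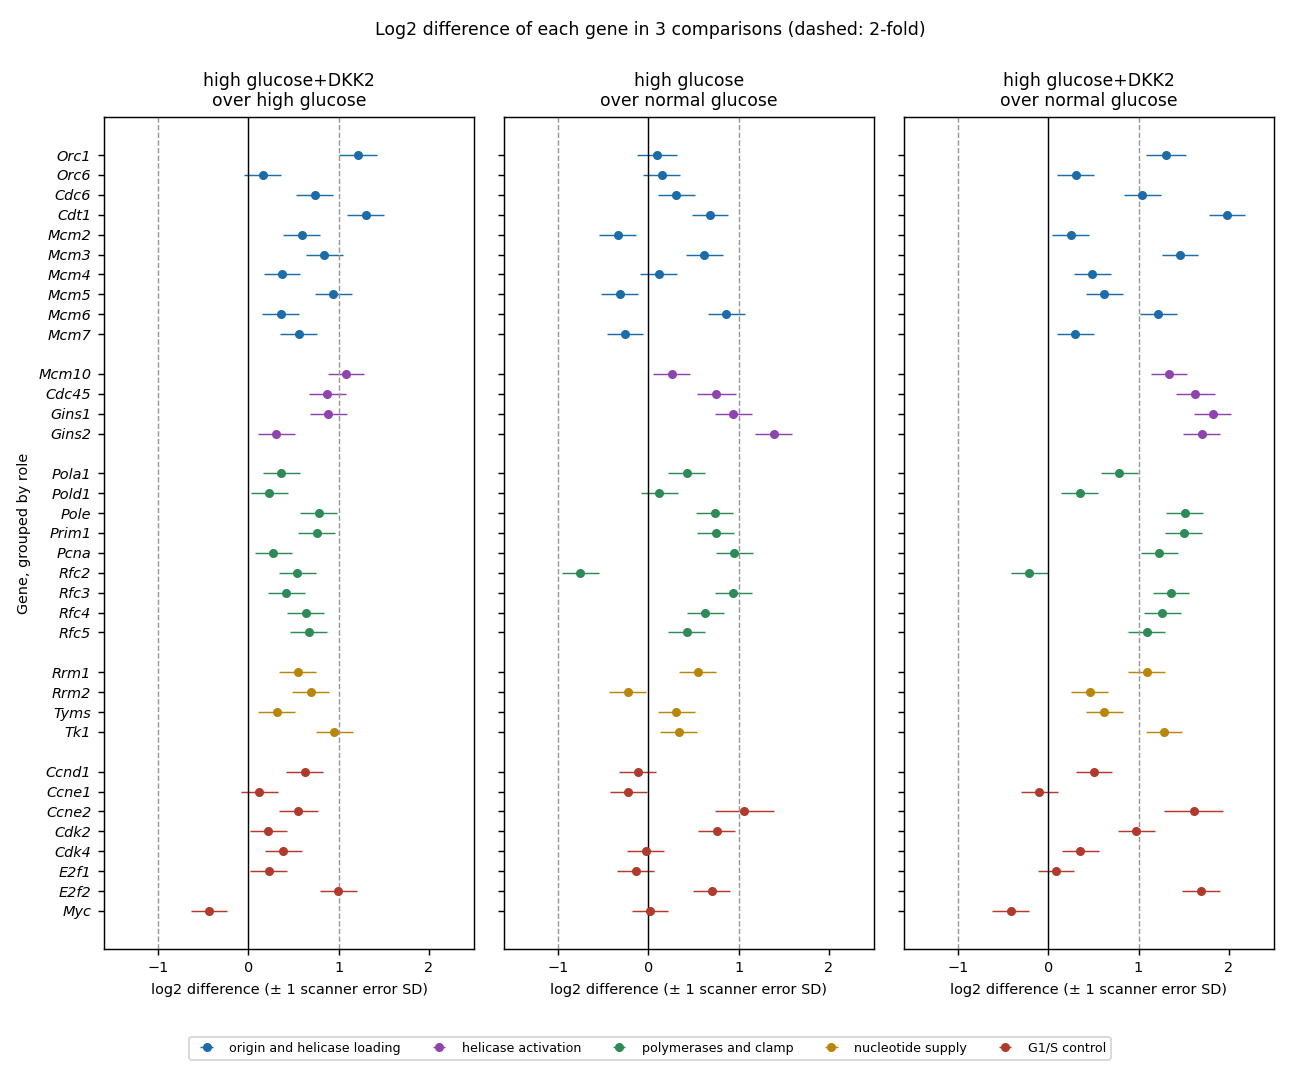
Log2 difference of each gene in the 3 comparisons, with bars of 1 scanner error SD to each side, coloured by role. With DKK2 over high glucose 34 genes lie right of 0 and Myc is at -0.44, high glucose over normal glucose spreads from -0.75 (Rfc2) to 1.39 (Gins2), and with DKK2 over normal glucose 19 genes lie past the dashed 2-fold line.

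Other genes of the same pathway were read in the same way. Of 42 other replication factors, 2 were at least 2-fold higher with DKK2 and 0 lower, with 34 above 0 and a median of 0.41. The highest were Recql4, a replication helicase gene, at 1.37, Dbf4, the activator of the CDC7 kinase, at 1.21, and Clspn, a fork checkpoint gene, at 0.91. The lowest were Dctd at -0.65, Pold3 at -0.35 and Pold2 at -0.33. Of 16 other G1/S regulators measured, 1 was higher, 0 were lower and 9 were above 0 (median 0.05). This was Mycl at 1.17, which was at 0.28 with normexp. E2f8, a repressive E2F made in S phase, was at 0.85 and E2f7 at 0.41, while Ccnd3 was at -0.62, Mycn at -0.55 and E2f6 at -0.50. Among 16 brakes on G1/S 0 were higher and 1 was lower (median 0.22): Cdkn1c, which encodes the CDK inhibitor p57, at -2.55. The next lowest brakes were Cdkn1b at -0.43 and Rbl2 at -0.28, and the highest were Btg2 at 0.91, Btg1 at 0.89 and Cdkn2c at 0.63. Of 16 mitosis genes 7 were at least 2-fold higher and 16 above 0 (median 0.96), led by Aurka at 1.66, Ccnb2 at 1.64 and Cdc20 at 1.40. Their median lay above that of the replication genes in the same comparison, and the gap was not tested.

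Markers of other cell types differed between the same arrays. Of 11 macrophage markers measured 7 were at least 2-fold higher with DKK2 (median 1.71), and their summed scaled signal was 26.1 with DKK2, 19.1 in high glucose and 27.5 in normal glucose. Itgam carried most of that sum, and without it the sum was 9.99 with DKK2, 3.43 in high glucose and 2.95 in normal glucose. All 10 fibroblast markers lay below 0 (median -0.53), with a sum of 390.03 with DKK2, 534 in high glucose and 583 in normal glucose. Smooth muscle markers (9 measured, 1 lower, median -0.36), adipocyte markers (8 measured, 5 lower, median -1.76) and skeletal muscle markers (7 measured, 4 lower, median -1.12) also lay mostly below 0. The 11 endothelial markers measured had a median of -0.29 with 3 lower. With normexp the median was -0.08 with 1 lower, and the 4 endothelial markers with a signal of at least 100 on all arrays had 0.21. The sum over the 10 endothelial markers read on all arrays was 6.502 with DKK2, 5.96 in high glucose and 5.61 in normal glucose. Kdr carried most of that sum, at 4.51 with DKK2, 3.84 in high glucose and 3.04 in normal glucose. Eng, the next largest, read 1.30 with DKK2, 1.13 in high glucose and 2.04 in normal glucose, so the order of the sums rests on Kdr. Itgam lay close to 0, at 0.04 (-0.26 as a mean over probes). The endothelial marker Erg was not well above background on both arrays, and the macrophage marker Cd68 had no named probe. The part of these cell type markers in the replication genes' differences was not tested.

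**Figure D4:**
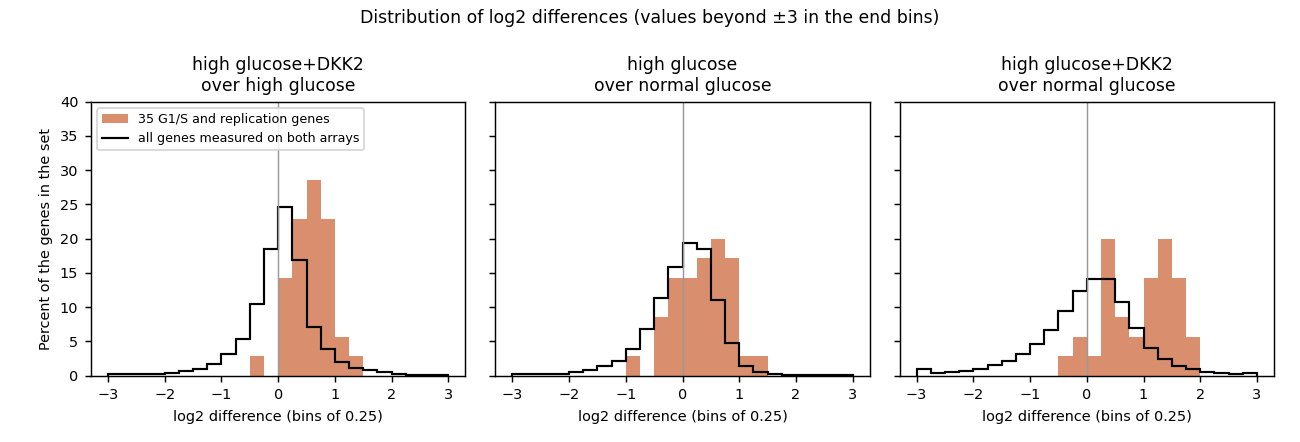
Share of the 35 genes (filled) and of all genes measured on both arrays (line) in bins of 0.25 log2 units, for each comparison. The members' median lies at 0.56, 0.33 and 1.09, against 0.08, 0.09 and 0.12 for all genes.

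The second comparison asked what high glucose did without DKK2. Here the genes scattered. Of the 35 genes 26 lay above 0, where 56.4% of all 16771 genes did, and the median was 0.33 against 0.09 for all genes. Gins2 and Ccne2 were at least 2-fold higher (2 genes, 5.71%) and 0 were lower, against 2.67% and 5.72% of all genes. At 1.5-fold 14 genes were higher and 1, Rfc2, was lower, against 14.0% and 13.6% of all genes. More than 2 error SDs separated 17 genes upwards (24.2% of all genes) and Rfc2 downwards (19.4% of all genes). This comparison uses the high glucose array that also served as the baseline for DKK2, so the values of both comparisons are linked through it.

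Subunits of one complex read differently. In the helicase ring Mcm6 was at 0.86 and Mcm3 at 0.62 in high glucose over normal glucose, Mcm4 was at 0.12, and Mcm2, Mcm5 and Mcm7 were at -0.34, -0.32 and -0.26. Mcm6 read 9.83 with DKK2, 7.68 in high glucose and 4.22 in normal glucose, so both high glucose arrays stood above normal glucose. In the clamp loader Rfc3 was at 0.94, Rfc4 at 0.63 (0.07 on its dimmer probe) and Rfc5 at 0.42, while Rfc2 was at -0.75. Rfc2 read 1.37 with DKK2, 0.939 in high glucose and 1.58 in normal glucose, with high glucose the lowest of the 3 arrays. The ring and the loader work as fixed assemblies, and each of these genes except Rfc4 rests on 1 probe.

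The largest member difference was that of Gins2, which read 0.696 with DKK2, 0.562 in high glucose and 0.214 in normal glucose. High glucose over normal glucose was 1.39 (0.97 with normexp), rank 151 of 16771 genes. Pcna, Gins1 and Rfc3 stood at 0.95, 0.94 and 0.94, though with normexp Gins1 and Rfc3 were at 0.42 and 0.40. Pcna read 10.97 with DKK2, 9.06 in high glucose and 4.68 in normal glucose, so most of its range lay between the glucose conditions. Ccne2, at 1.06, had a scaled signal of 0.0256 with DKK2, 0.0175 in high glucose and 0.00839 in normal glucose, the last a processed signal of 10.1, and stood at -1.31 with normexp. Prim1, Pole and Cdt1 were at 0.74, 0.73 and 0.68. A dimmer probe of Pole, with a processed signal of 24.1 in high glucose and 43.2 in normal glucose, was at -1.83, and the probes of Ccne1 also lay on both sides of 0. Rrm1, Tk1 and Tyms were at 0.55, 0.33 and 0.31 and Rrm2 at -0.23. Myc (0.02), Cdk4 (-0.03), Ccnd1 (-0.12), E2f1 (-0.14) and Ccne1 (-0.22) lay near 0, and the last was just past 1 error SD.

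In the wider pathway 0 of 42 other replication factors were at least 2-fold higher and 3 were lower in high glucose (median 0.08). The lower ones were Dctd, a deoxycytidylate deaminase gene, at -2.28 (-1.25 as a mean over probes), Dnmt1, the maintenance DNA methyltransferase, at -1.92 and Pold2 at -1.54. The highest were Gmnn, the inhibitor of CDT1, at 0.97 (0.09 with normexp), Ung at 0.91 and Pole4 at 0.78. Among 15 other G1/S regulators measured 0 were higher and 1 was lower, E2f4 at -1.62, a pocket protein partner, followed by Tfdp1 at -0.89 and Mycl at -0.88. Among 15 brakes measured 0 were higher and 3 were lower: Rbl2, a pocket protein gene, at -1.87, Btg2 at -1.19 and Cdkn1a, the p21 gene, at -1.04 (-0.12 as a mean over probes). Of 14 mitosis genes measured 0 were 2-fold apart (median 0.15). Among cell type markers 3 of 10 endothelial genes (0 with normexp), 3 of 8 adipocyte genes (1 with normexp), 1 of 11 macrophage genes and 0 of 10 fibroblast genes were at least 2-fold higher. Of the smooth muscle genes 1 of 10 was lower and of the skeletal muscle genes 1 of 7. With normexp, where 3946 of all 16771 genes were lower, the counts for these markers were 5 and 3. Their part was not tested.

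The third comparison joined the ends of both steps, high glucose with DKK2 over normal glucose. It shares an array with each of the other 2 comparisons. Most of the 35 genes passed the 2-fold size here on the processed signal, though only 12 did with normexp (5.61% of all genes). Of the 35 genes 19 (54.3%) were at least 2-fold higher and 0 lower, where 10.5% of all 16676 genes were higher and 10.4% lower. The median was 1.09, against 0.12 for all genes, and 32 genes lay above 0 (56.5% of all genes). At 1.5-fold 23 genes were higher (24.2% of all genes) and 0 lower (19.2% of all genes). More than 2 error SDs separated 26 genes upwards (32.3% of all genes) and Myc downwards (24.3% of all genes).

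All 4 helicase activation genes passed 2-fold: Gins1 at 1.82, Gins2 at 1.70, Cdc45 at 1.63 and Mcm10 at 1.34. Of the 10 licensing genes 5 did, Cdt1 at 1.98 (rank 287 of 16676 genes), Mcm3 at 1.46, Orc1 at 1.30, Mcm6 at 1.22 and Cdc6 at 1.04. Of the 9 polymerase and clamp genes 6 did, from Pole at 1.51 and Prim1 at 1.5 to Rfc5 at 1.09, with Rfc3 at 1.36, Rfc4 at 1.26 and Pcna at 1.23. A dimmer probe of Pole was at -0.36 and that of Rfc4 at 0.86, while that of Cdc6 was at 1.98. Tk1 (1.28) and Rrm1 (1.09) passed 2-fold among the 4 nucleotide supply genes. Among the 8 control genes only E2f2 at 1.69 and Ccne2 at 1.61 did. Cdk2 at 0.98 lay just inside 2-fold. Ccnd1, Cdk4 and E2f1 were at 0.51, 0.35 and 0.09, and the genes below 0 were Myc at -0.42, Rfc2 at -0.21 and Ccne1 at -0.10. Of 42 other replication factors 7 were higher and 4 lower (median 0.48), against 4 higher and 5 lower with normexp. At the top were Gmnn at 1.81 and Recql4 at 1.68 (each 0.92 with normexp) and Timeless at 1.36. At the bottom were Dctd at -2.93, Pold2 at -1.86 and Dnmt1 at -1.42. Of 15 other G1/S regulators 1 was higher (E2f8 at 1.03, 0.78 with normexp) and 1 lower (E2f4 at -1.39). Of 15 brakes 0 were higher and 2 lower, Cdkn1c at -3.05 and Rbl2 at -2.16. Of 14 mitosis genes 10 were higher and 0 lower (median 1.06). Macrophage markers were at least 2-fold higher for 8 of 11 genes (5 with normexp). Of 10 endothelial markers measured 0 were 2-fold apart (median 0.62), against 3 lower and a median of -0.53 with normexp. Lower were 2 of 10 fibroblast, 3 of 9 smooth muscle, 4 of 8 adipocyte and 3 of 6 skeletal muscle markers, with Adipoq at -6.04 and Acta2 at -2.64. With normexp, where 4017 of all 16676 genes were lower, the counts of lower markers were 2, 6, 7 and 6 in that order. Their part was not tested.

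The comparisons with normal glucose depended on how the background was removed, above all for dim genes. Orc1, Cdc45, Ccne2 and E2f2 had a processed signal under 100 in normal glucose. With normexp, which starts from the raw spot signal and the local background, they stood at -0.32, -0.09, -0.97 and 0.65 over normal glucose. Of the 35 genes 12 were at least 2-fold higher (5.61% of all genes). The 7 genes that lost the 2-fold size were these 4 with Cdc6 (0.21), Rfc3 (0.77) and Rfc5 (0.97). Normexp also moved all genes: their median in this comparison was -0.25, and relative to it the members' median was 0.85, against 0.97 from the processed signal. For DKK2 over high glucose normexp left 34 genes above 0 with a median of 0.60. Cdt1 (1.31) and Mcm10 were still at least 2-fold higher, while Orc1 (0.84) lost the 2-fold size and Cdc45 stood at 0.62. Without the 4 dim genes, 15 of 31 genes were at least 2-fold higher with DKK2 than in normal glucose. Of all 12165 genes with a signal of at least 100 on all 3 arrays 8.71% were. Over high glucose 2 of 31 members (6.45%) were higher with DKK2, against 3.24% of those genes.

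**Figure D5:**
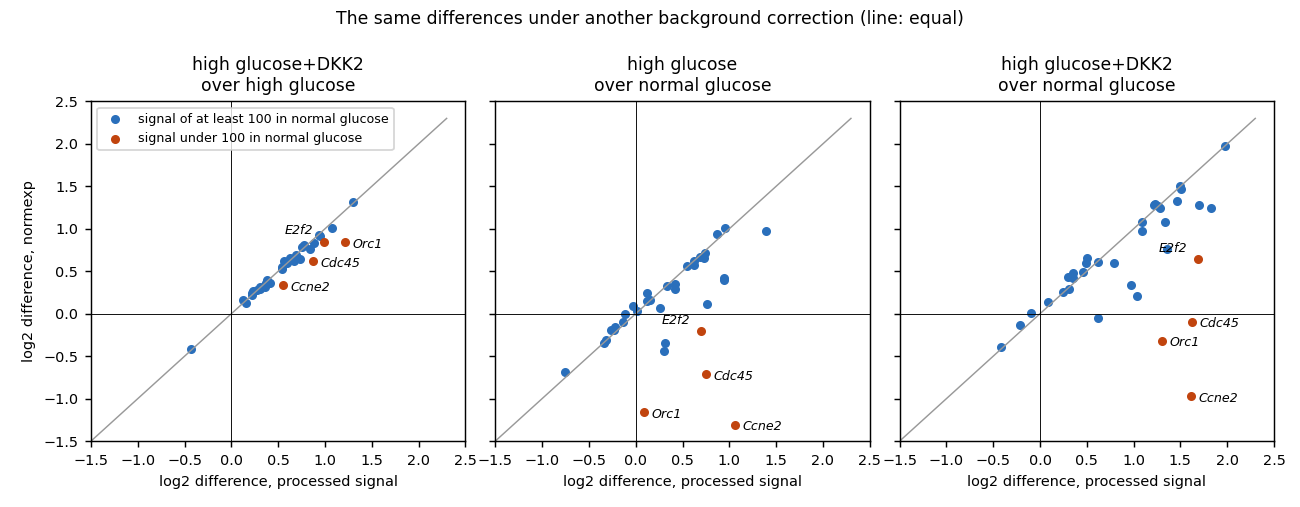
Log2 difference of each of the 35 genes from the processed signal (x axis) and from normexp background correction (y axis), one panel per comparison. With DKK2 over high glucose most points follow the line of equal values, with Orc1 and Cdc45 below it at 0.84 and 0.62, and over normal glucose the 4 named dim genes fall below it, down to -1.31 for Ccne2.

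Genes with and without an E2F-type word were set side by side. In the DKK2 over high glucose comparison the 16 members with a word had a median of 0.66 (0.22 to 1.30) and the 11 without one 0.38 (0.12 to 1.08). With DKK2 over normal glucose the medians were 1.16 and 0.62, and 10 of 16 and 5 of 11 were at least 2-fold higher. Over all genes the shares were 9.81% with a word and 10.7% without. The ranges overlapped in both comparisons, and the split was not tested.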

How the data were processed

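RNA of 3 pooled samples per condition was labelled with Cy3 and hybridised to 1 Agilent array each, per the labels. The deposited scanner output gives each spot a linear, background-corrected intensity (the processed signal), with its error and flags, from Feature Extraction 11.5.1.1, per the file headers. The deposited value table holds intensity too and equals the processed signal within a fraction of 0.001 for at least 99.8% of probes on each array. Control spots (1377) and 110 to 136 outlier spots per array were left out, and 0 spots were saturated. Spots of a probe were averaged as log2 values, minus the array's 75th percentile. Probes (39429) were named through accessions in a RefSeq table (GRCm38.p6, names only): 27508 matched 1 gene and 11921 none. A gene was read on its brightest probe among those well above background (at least 50% of spots) on at least 1 array, and counted where that probe was so on both. Every member is reported, and of other lists the 3 highest and lowest genes. The members, lists and rules were chosen with earlier results of these data known. Counting was run on simulated data with changes larger than 2-fold and less noise than the scanner error. This checks the code and not the counts found here. The number of arrays limits the precision. The files carry no gene name column and no mean signal, so normexp used the median signal. Tools were R 4.3.3, limma 3.58.1, Python 3.11.15, numpy 2.4.6, pandas 2.3.3 and matplotlib 3.10.9.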

Additional observations from a re-analysis of the deposited data

How the results depend on the processing

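Alternatives were normexp (offset 50), cyclic loess, median scaling, quantile normalization, a 75th percentile over probes above background on all arrays, the deposited table, no filter, a stricter filter (signal no lower than 100 on any array), averaging of a gene's probes, the probe with the smallest error, and rules of 1.5-fold and 3-fold. Normexp with no offset was added after seeing the data. With DKK2 over high glucose the count of members higher was 17 at 1.5-fold, 0 at 3-fold, 2 with normexp (without Orc1, at 0.84), 2 with the stricter filter and 4 with the mean over probes (with Pole, at 1.12). The shares of all genes were 13.1%, 1.59%, 2.83%, 3.24% and 4.96% in that order. The median stayed within 0.1 of 0.56 in every alternative, and 34 genes (30 of 31 with the stricter filter) were above 0. With high glucose over normal glucose the count higher was 1 with normexp (Pcna), cyclic loess or the stricter filter, 14 at 1.5-fold and 0 at 3-fold. The shares of all genes were 1.02%, 2.12%, 1.80%, 14.0% and 0.63% in that order. The count lower was 2 with normexp, with or without the offset, and 1 at 1.5-fold. Of all 16771 genes 3946 were lower with normexp, 4185 with no offset and 13.6% at 1.5-fold. The median was 0.12 with normexp and 0.14 with no offset. Normexp also moved the median of all genes in this comparison to -0.26. Relative to that the members' median was 0.37, against 0.25 from the processed signal. With DKK2 over normal glucose the count higher was 12 with normexp (12 with no offset), 18 with the mean over probes and 6 at 3-fold. The shares of all genes were 5.61% (6.06%), 9.69% and 3.44% in that order. Normexp with no offset left 1 member lower, where 4236 of all 16676 genes were lower. The median was 0.60 with normexp, 0.61 with no offset, 0.97 with cyclic loess and 0.98 with the stricter filter. Signs turned under normexp for 7 genes in high glucose over normal glucose, with and without the offset: Ccne2 (-1.31, and -1.66 with no offset), Orc1 (-1.16 and -1.34), Cdc45 (-0.71 and -0.67), Cdc6 (-0.44 and -0.36), Tyms (-0.35 and -0.27), E2f2 (-0.20 and -0.08) and Cdk4 (0.08 and 0.06). In DKK2 over normal glucose they turned for 5 genes: Ccne2 (-0.97, and -1.05 with no offset), Orc1 (-0.32 and -0.15), Cdc45 (-0.0944), Tyms (-0.06) and Ccne1 (0.01), the last 3 with the offset only. The cause was not tested. Over all genes high glucose over normal glucose gave 448 higher and 960 lower, against 171 and 3946 with normexp, and DKK2 over normal glucose gave 1744 and 1727, against 936 and 4017. Low signal over background in normal glucose limits Orc1, Cdc45, Ccne2 and E2f2. No paired analysis was possible because each condition had 1 array.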

Other observations

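The E2F-type words were also set against the differences of all genes. With DKK2 over high glucose the 2278 measured genes with a word in a promoter window had a median of 0.08 and 3.86% were at least 2-fold higher, against 0.08 and 5.24% for the 11806 without one. With DKK2 over normal glucose the medians were 0.15 (2203 genes) and 0.12 (10989 genes), and 9.81% and 10.7% were at least 2-fold higher. In the mitosis list it stood in 3 of 13 genes (23.1%).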
